A study of Mus musculus with 5 samples.

Results

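The genes described are 9 members of the small leucine-rich proteoglycan family: *Dcn* (decorin), *Bgn* (biglycan), *Aspn* (asporin), *Lum* (lumican), *Fmod* (fibromodulin), *Prelp*, *Omd* (osteomodulin), *Ogn* (osteoglycin) and *Chad* (chondroadherin). They were chosen by name, and all 9 have a row among the 30046 features of the raw counts. The counts come from bulk RNA-seq of Cxcl12-GFP-high, tdTomato-positive bone marrow stromal cells, sorted by FACS from mouse femurs at P21 after a single tamoxifen pulse at E12.5. Dlx5CE-E12.5 cells (3 libraries, replicates 1 to 3) came from mice carrying Cxcl12(GFP/+), Dlx5(CreER/+) and R26R(tdTomato/+), and Fgfr3CE-E12.5 cells (2 libraries, labelled replicates 2 and 3) from mice carrying Cxcl12(GFP/+), Fgfr3-iCreER and R26R(tdTomato/+). Cxcl12-GFP is a reporter at the locus of the chemokine gene *Cxcl12*, so every animal, in both groups, had 1 modified *Cxcl12* allele. The tdTomato reporter marks the progeny of whichever fetal cells had creER activity while tamoxifen acted. By the paper, these were mainly outer perichondrial cells in the first group and chondrocytes of the cartilage template in the second. The paper names as a possible limit that recombination may go on for several days after the pulse. Cells of littermates were pooled by genotype, and the distal growth plates were removed before the bones were dissociated. The comparison is between marrow stromal cells of the same reporter gate that descend from different fetal compartments. By the paper's histology at P21, Dlx5CE-E12.5 stromal cells lay in the diaphyseal marrow and Fgfr3CE-E12.5 ones mainly in the metaphyseal marrow. Fetal origin and place in the bone thus cannot be told apart here.

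Small leucine-rich proteoglycans are secreted proteins built around a run of leucine-rich repeats, and most carry sulfated sugar chains. They bind fibrillar collagen and set the diameter and spacing of its fibrils, and several bind TGF-beta or BMP ligands and hold them in the matrix. Decorin and biglycan carry chondroitin or dermatan sulfate, lumican, fibromodulin and osteomodulin carry keratan sulfate, and asporin and chondroadherin are usually described without such chains. In the skeleton, biglycan and decorin are abundant in bone matrix, osteomodulin is made by osteoblasts, and chondroadherin is a protein of cartilage that binds cells through an integrin.

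The Dlx5CE-E12.5 libraries had between 22035650 and 32563758 counts and the Fgfr3CE-E12.5 libraries 56355203 and 58166285. Counts scaled to the library total (CPM) were normalized by TMM, a scaling that assumes that most genes do not differ between libraries, and fold changes are given as Fgfr3CE-E12.5 over Dlx5CE-E12.5 on a log2 scale with their standard error (SE). A gene was called where edgeR's quasi-likelihood test, adjusted over all genes tested (Benjamini-Hochberg), gave an adjusted p under 0.05 and the log2 fold change was above 1 in size. By the study's methods the Dlx5CE-E12.5 libraries were read on a different sequencer and with longer, paired reads than the Fgfr3CE-E12.5 libraries, while the labels name 1 sequencer for all, so read type and lineage cannot be told apart. Fgfr3CE-E12.5 replicate 2 stood apart from replicate 3 in markers of cartilage. The summed level of 13 chondrocyte markers was 129.7 to 136.1 CPM in the Dlx5CE-E12.5 libraries, where 5 to 9 of the 13 were at 0 counts, but 3367 CPM in Fgfr3CE-E12.5 replicate 2 and 458.6 CPM in replicate 3, where none was at 0. Most of the sum in Dlx5CE-E12.5 cells was *Sox9*, singled out after its values were seen, which ran against the rest of the list at 124.1, 116.6 and 122.4 CPM against 96.8 and 53.7 CPM (log2 fold change -0.69, SE 0.24, edgeR adjusted p = 0.0535). Without *Sox9*, the other 12 markers summed to 8.51 to 13.05 CPM in the Dlx5CE-E12.5 libraries and to 3270.4 and 404.9 CPM in the Fgfr3CE-E12.5 libraries. Markers of leukocytes were also higher in the Fgfr3CE-E12.5 libraries, but with replicate 3 above replicate 2. Over 15 genes they summed to 966.2 to 1073 CPM in Dlx5CE-E12.5 cells, 2248 CPM in Fgfr3CE-E12.5 replicate 2 and 4962 CPM in replicate 3. The labels call the cells CXCL12-abundant reticular (CAR) cells, and 10 markers of these cells summed to 33472 to 35450 CPM in Dlx5CE-E12.5 cells against 13644 and 8900 CPM in the Fgfr3CE-E12.5 libraries. Of these 10, 7 were called higher in Dlx5CE-E12.5 cells, and 1, *Foxc1*, higher in Fgfr3CE-E12.5 cells. Of all genes tested, 13.1% and 16.4% were called in these directions. Bulk RNA cannot tell fewer cells of a type from less RNA per cell.

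Of the 9 genes, 8 exceeded a CPM of 10 in every library and were tested with 10093 protein-coding genes and reporters. *Prelp*, *Aspn* and *Ogn* were called higher in Dlx5CE-E12.5 cells (3 of 8, 37.5%, where 13.1% of all genes tested were called in that direction). *Fmod* was called higher in Fgfr3CE-E12.5 cells (1 of 8, 12.5%, against 16.4% of all genes). *Chad* did not reach the filter. A filter of 1 CPM in 2 libraries was passed by *Chad* only through the Fgfr3CE-E12.5 libraries. In every Dlx5CE-E12.5 library it was under 1 CPM. Under this filter it was called higher in Fgfr3CE-E12.5 cells, a direction that the filter favoured. With *Chad* counted, 2 of 9 were called in that direction against 16.6% of 13235 genes, and 3 of 9 in the other against 12.9%. *Bgn* and *Omd* had adjusted p-values under 0.05 with smaller changes, which brought the number under that threshold at any fold to 6 of 8 (75.0%, against 48.4% of all genes). The libraries of the groups did not overlap for 7 of the 8, all but *Lum*, where 68.9% of all genes did not overlap. The median log2 fold change of the 8 was -0.68, beside 0.01 over all genes tested.

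**Figure D1:**
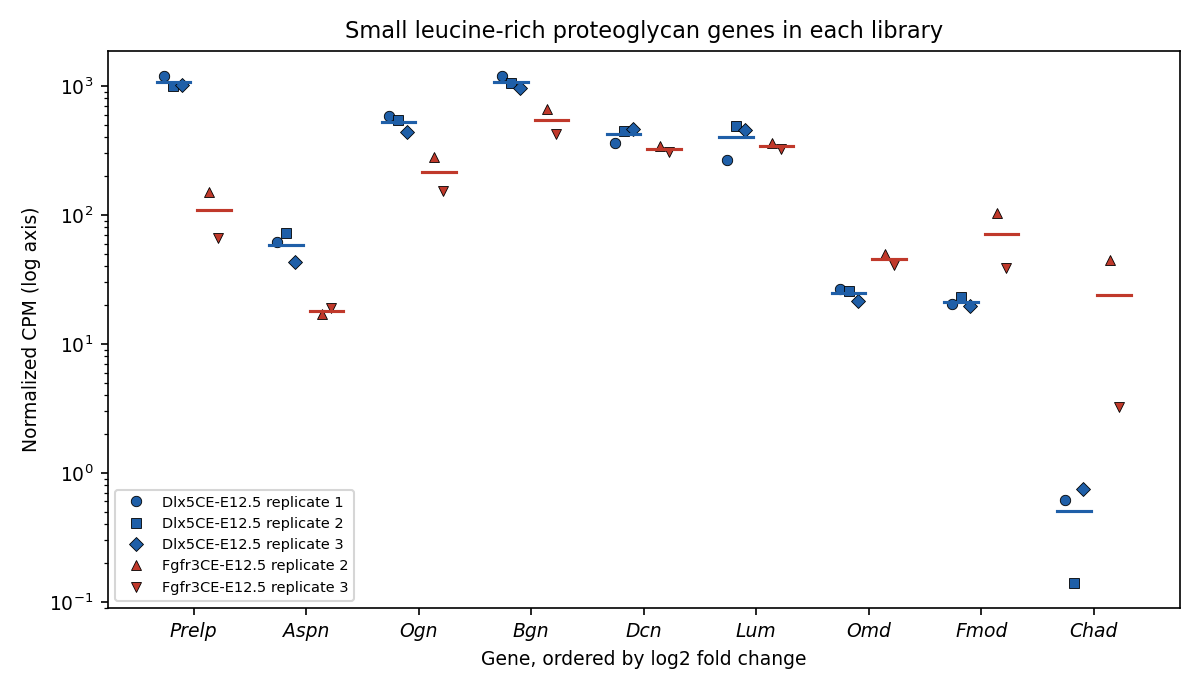
Normalized CPM on a log axis (y) of the 9 small leucine-rich proteoglycan genes (x, ordered by fold change); each point is 1 library (blue, 3 Dlx5CE-E12.5 libraries; red, 2 Fgfr3CE-E12.5 libraries) and each bar is a group mean. The red points of *Prelp*, *Aspn*, *Ogn*, *Bgn* and *Dcn* lie below all blue points, those of *Omd*, *Fmod* and *Chad* above them, and those of *Lum* inside their range.

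Several members lie beside each other in the genome, and the sequences before their starts are given here because genes of 1 cluster did not move alike. On GRCm38, *Prelp* lies at chr1:133910304-133921414 on the minus strand and *Fmod* at chr1:134037254-134048277 on the plus strand, 115840 bases apart. *Aspn* (chr13:49544443-49567565), *Omd* (chr13:49582462-49592822) and *Ogn* (chr13:49608046-49624501) follow each other on the plus strand, with gaps of 14897 and 15224 bases. *Chad* lies alone at chr11:94565047-94569127. The 250 bases before the RefSeq start of each gene (GRCm38.p6, 5′ to 3′ on the strand of the gene) are printed with capitals where a script found 1 of 6 motifs on either strand. The motifs were the core promoter element TATAAA, the GC box GGGCGG, the RUNX core TGTGGT, the SOX core ACAAAG, the AP-1 site TGACTCA and the E-box CAGCTG. The windows are those of *Prelp* (chr1:133921402-133921651), *Fmod* (chr1:134037004-134037253), *Aspn* (chr13:49544193-49544442), *Omd* (chr13:49582212-49582461), *Ogn* (chr13:49607765-49608014) and *Chad* (chr11:94564797-94565046).
Prelp: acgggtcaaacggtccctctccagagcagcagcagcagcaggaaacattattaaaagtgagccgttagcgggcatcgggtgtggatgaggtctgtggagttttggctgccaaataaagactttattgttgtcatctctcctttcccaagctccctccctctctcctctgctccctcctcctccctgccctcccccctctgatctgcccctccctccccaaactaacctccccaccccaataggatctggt
Fmod: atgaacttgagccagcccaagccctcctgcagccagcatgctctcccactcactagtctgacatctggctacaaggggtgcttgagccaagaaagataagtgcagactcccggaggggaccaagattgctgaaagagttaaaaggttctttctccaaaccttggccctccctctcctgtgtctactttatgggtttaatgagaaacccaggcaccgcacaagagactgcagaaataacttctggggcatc
Aspn: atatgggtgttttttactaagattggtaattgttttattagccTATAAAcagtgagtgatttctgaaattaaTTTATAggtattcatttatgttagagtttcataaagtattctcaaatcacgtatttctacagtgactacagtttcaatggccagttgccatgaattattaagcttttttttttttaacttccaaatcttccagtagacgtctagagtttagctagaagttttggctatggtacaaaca
Omd: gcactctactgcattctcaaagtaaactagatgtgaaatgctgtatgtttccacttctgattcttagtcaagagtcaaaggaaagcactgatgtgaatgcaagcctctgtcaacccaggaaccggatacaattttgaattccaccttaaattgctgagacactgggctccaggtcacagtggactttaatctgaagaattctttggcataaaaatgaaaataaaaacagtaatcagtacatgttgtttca
Ogn: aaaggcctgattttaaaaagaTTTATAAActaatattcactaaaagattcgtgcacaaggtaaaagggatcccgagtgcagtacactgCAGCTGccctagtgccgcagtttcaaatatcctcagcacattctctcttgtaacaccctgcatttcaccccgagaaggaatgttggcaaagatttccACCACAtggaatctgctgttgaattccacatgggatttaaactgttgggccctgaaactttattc
Chad: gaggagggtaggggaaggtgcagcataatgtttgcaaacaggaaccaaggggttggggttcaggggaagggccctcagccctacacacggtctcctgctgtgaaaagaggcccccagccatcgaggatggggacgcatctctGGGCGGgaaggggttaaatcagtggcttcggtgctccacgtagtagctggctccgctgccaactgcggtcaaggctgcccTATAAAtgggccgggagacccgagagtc

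None of the 6 motifs was found in the windows of *Prelp*, *Fmod* and *Omd*, as in 31.3% of the 32851 promoters of the table. The opposed neighbours *Prelp* and *Fmod* thus could not be told apart by these letters, which says nothing about the factors that bind there. *Aspn* held TATAAA on each strand, 207 and 178 bases before the start. *Ogn* held TATAAA on both strands in overlapping matches 227 and 229 bases before the start, CAGCTG at 162 bases and TGTGGT at 65 bases on the minus strand. In *Chad*, TATAAA stood 28 bases before the start, the usual place of a TATA box, with GGGCGG at 108 bases. Among all promoters, TATAAA was found in 12.4%, GGGCGG in 32.7%, TGTGGT in 14.0%, ACAAAG in 16.5%, TGACTCA in 4.46% and CAGCTG in 13%. The windows of the chromosome 13 genes were poor in G and C (30.0% in *Aspn*, 38.4% in *Omd*, 42.0% in *Ogn*) beside a median of 52.4% over all promoters, while that of *Chad* had 60.4% and 10 CpG dinucleotides against a median of 6. *Bgn*, on chromosome X, had 3 matches of GGGCGG on the minus strand, of which those at 10 and 6 bases before the start overlap, and 1 CAGCTG.

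*Prelp* encodes a proteoglycan whose basic amino-terminal region binds heparan sulfate and links basement membranes to collagen. Its normalized CPM was 1186, 992 and 1025 in Dlx5CE-E12.5 replicates 1 to 3, and 151.2 and 65.7 in Fgfr3CE-E12.5 replicates 2 and 3. Every Dlx5CE-E12.5 library thus stood at more than 6 times the higher Fgfr3CE-E12.5 library. The means were 1068 ± 104 CPM (SD, n = 3) and 108.5 ± 60.4 CPM (SD, n = 2), and the log2 fold change was -3.30 (SE 0.38, edgeR adjusted p = 0.000621), a 9.84-fold lower level in Fgfr3CE-E12.5 cells. *Prelp* had the largest change of the 8 genes tested. With each library left out in turn it ranged from -4.02 to -2.82 and stayed called. An antisense transcript, *Gm15851*, shares 350 exon bases with *Prelp*, and without a stated strand setting their reads cannot be separated.

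*Fmod*, the neighbour of *Prelp*, encodes fibromodulin, which binds collagen and guides its cross-linking by lysyl oxidase. Its normalized CPM was 20.6, 23.2 and 19.6 in the Dlx5CE-E12.5 libraries, and 103.5 and 39.0 in the Fgfr3CE-E12.5 libraries. Both Fgfr3CE-E12.5 libraries stood above all Dlx5CE-E12.5 libraries, but replicate 2 was 2.66 times replicate 3. Its log2 fold change was 1.75 (SE 0.37, edgeR adjusted p = 0.00748). Without Fgfr3CE-E12.5 replicate 2, the library with the higher chondrocyte markers, it was 0.88 (adjusted p = 0.0109) and under the fold threshold, and without replicate 3 it was 2.29. Whether those markers play a part in the level of *Fmod* was not tested.

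The ratio of *Fmod* to *Prelp* within each library put this opposition on a scale that no normalization between libraries can move. As log2 of the ratio of counts, it was -5.85, -5.42 and -5.71 in the Dlx5CE-E12.5 libraries and -0.55 and -0.76 in the Fgfr3CE-E12.5 libraries. The groups did not overlap and differed by 5.01 on the log2 scale. This gap restates the opposed fold changes given above and is not separate support for them. With 3 libraries against 2, an exact permutation test cannot go below a one-sided p of 0.1, so no test is given for ratios. The other neighbours on chromosome 1 were *Optc* (opticin), which lies 2305 bases from *Prelp*, and *Btg2*, an antiproliferative gene beside *Fmod*. *Optc* was at 1.60, 1.70 and 1.07 CPM against 0.60 and 0.41 CPM, with a log2 fold change of -1.54 under the lower filter (adjusted p = 0.0666). *Btg2* was called higher in Dlx5CE-E12.5 cells (-1.81, SE 0.41, edgeR adjusted p = 0.0103), in the direction of *Prelp* and against that of *Fmod*.

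*Aspn* encodes asporin, which carries a run of aspartate residues, binds collagen and TGF-beta 1, and is made by periosteal and ligament cells. It was at 61.5, 71.8 and 43.3 CPM in Dlx5CE-E12.5 cells, and at 17.2 and 19.1 CPM in Fgfr3CE-E12.5 cells. The lowest Dlx5CE-E12.5 library was above the higher Fgfr3CE-E12.5 library by 2.27 times. The log2 fold change was -1.70 (SE 0.24, edgeR adjusted p = 0.00145) and lay between -1.88 and -1.53 with any 1 library left out. *Aspn* was the only one of the 9 genes that was not higher in Fgfr3CE-E12.5 replicate 2 than in replicate 3.

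*Ogn* encodes osteoglycin (mimecan), a matrix protein that is also secreted as a circulating factor by bone and muscle. Its normalized CPM was 580.3, 541.1 and 441.4 in Dlx5CE-E12.5 cells, and 280.1 and 152.4 in Fgfr3CE-E12.5 cells. The groups did not overlap, and the Fgfr3CE-E12.5 libraries differed from each other by 1.84 times. The log2 fold change was -1.27 (SE 0.28, edgeR adjusted p = 0.00920). It was -0.90 and under the fold threshold without Fgfr3CE-E12.5 replicate 3 (adjusted p = 0.0188), and -1.77 without replicate 2.

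*Omd*, between *Aspn* and *Ogn*, encodes osteomodulin (osteoadherin), an acidic keratan sulfate proteoglycan of mineralizing bone matrix. It was at 26.5, 25.6 and 21.7 CPM in Dlx5CE-E12.5 cells, and at 49.8 and 41.2 CPM in Fgfr3CE-E12.5 cells, with no overlap. The log2 fold change was 0.89 (SE 0.17, edgeR adjusted p = 0.00523), under the fold threshold, and passed it without Fgfr3CE-E12.5 replicate 3 (1.02) or with scaling by library size alone (1.09). Within libraries, the log2 ratio of *Omd* to *Aspn* was -1.21, -1.49 and -0.997 in the Dlx5CE-E12.5 libraries against 1.54 and 1.11 in the Fgfr3CE-E12.5 libraries, so that the sign of the ratio differed between the groups, as did the order of their levels per length given further on. The log2 ratio of *Omd* to *Ogn* was -4.40 ± 0.05 (SD, n = 3) in Dlx5CE-E12.5 cells and -2.19 ± 0.43 (SD, n = 2) in Fgfr3CE-E12.5 cells, without overlap. The log2 ratio of *Aspn* to *Ogn* overlapped between the groups, at -3.35 to -2.91 against -4.03 and -2.999.

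The 3 genes of chromosome 13 and *Ecm2* before them lie inside *Cenpp*, a centromere protein gene on the opposite strand, and share with it no exon bases other than 7 of *Aspn*. *Cenpp* was called higher in Fgfr3CE-E12.5 cells (log2 fold change 1.73, SE 0.29, edgeR adjusted p = 0.00280) at 10.6 and 10.1 CPM. The log2 ratio of its counts to those of *Omd* was -2.23 and -2.03 in these libraries. The part of unspliced *Cenpp* reads in the counts of *Omd* was not tested. *Nol8*, on the other side of *Ogn*, was at 0.04 (SE 0.27, adjusted p = 0.908). Of the 50-base windows of *Omd*, 4.67% also occur in transcripts of another gene, and of those of *Aspn* and *Ogn* none.

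*Chad* encodes chondroadherin, known from cartilage and the growth plate. It had 19, 3 and 19 counts in the Dlx5CE-E12.5 libraries, and 2734 and 205 counts in the Fgfr3CE-E12.5 libraries. In normalized CPM these are 0.62, 0.14 and 0.76 against 44.4 and 3.23, so that both Fgfr3CE-E12.5 libraries stood above every Dlx5CE-E12.5 library, and replicate 2 was 13.7 times replicate 3. Under the lower filter, which *Chad* passed only through the Fgfr3CE-E12.5 libraries, the log2 fold change was 5.49 (SE 1.10, edgeR adjusted p = 0.00687). Without Fgfr3CE-E12.5 replicate 2 it was 2.63 (adjusted p = 0.0559) and no longer called. The chondrocyte markers moved with it, as 13 of 13 were higher in replicate 2, by a median of 10.4 times over the 10 past the lower filter. Their part in the level of *Chad* was not tested. *Chad* lies inside *Acsf2*, on the opposite strand and with no shared exon bases, which was at 19.5 and 13.6 CPM in the Fgfr3CE-E12.5 libraries (log2 fold change 0.85, SE 0.31, adjusted p = 0.0610).

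*Bgn*, biglycan, was at 1192, 1055 and 958.4 CPM in Dlx5CE-E12.5 cells, and at 667.4 and 421.9 CPM in Fgfr3CE-E12.5 cells. The groups did not overlap. The log2 fold change was -0.97 (SE 0.23, edgeR adjusted p = 0.0130), just under the fold threshold, and leaving out 1 library moved it to between -1.34 and -0.68. It passed the threshold without Dlx5CE-E12.5 replicate 3 (-1.04), without Fgfr3CE-E12.5 replicate 2 (-1.34) and with a trend on transcript length removed (-1.13).

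*Dcn*, decorin, was at 360.7, 450.0 and 461.1 CPM in Dlx5CE-E12.5 cells, and at 342.1 and 307.1 CPM in Fgfr3CE-E12.5 cells. The groups did not overlap, with 18.7 CPM between the nearest libraries. The log2 fold change was -0.39 (SE 0.17, edgeR adjusted p = 0.0965), between -0.49 and -0.31 with 1 library left out, and the adjusted p was 0.0471 without Dlx5CE-E12.5 replicate 1. *Lum*, lumican, which lies 46985 bases from *Dcn* on chromosome 10, was at 268.7, 488.6 and 451.7 CPM against 359.7 and 324.4 CPM. Both Fgfr3CE-E12.5 libraries lay inside the range of the Dlx5CE-E12.5 libraries, and the log2 fold change was -0.24 (SE 0.26, edgeR adjusted p = 0.488). The log2 ratio of *Lum* to *Dcn* within libraries was -0.42, 0.12 and -0.03 against 0.07 and 0.08. Dlx5CE-E12.5 replicate 1 was the lowest library for both *Dcn* and *Lum* in its group. The ratio of *Bgn* to *Dcn*, relatives with the same kind of sugar chain, was 1.72, 1.23 and 1.06 on the log2 scale against 0.96 and 0.46, without overlap.

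**Figure D2:**
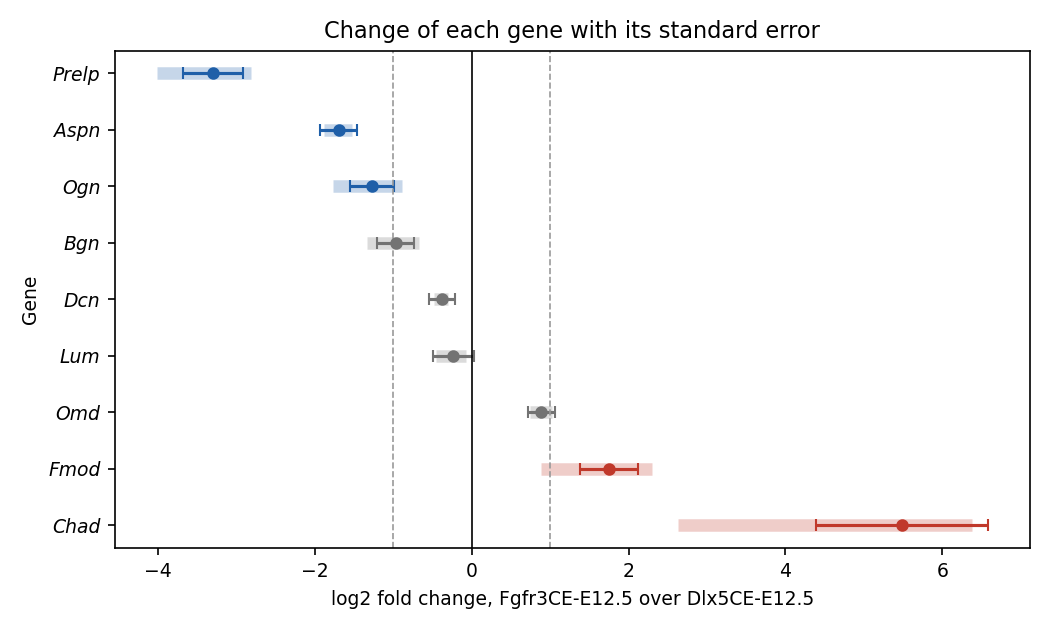
Log2 fold change (x, Fgfr3CE-E12.5 over Dlx5CE-E12.5) of each gene (y); points with bars are the edgeR fit on 5 libraries ± SE, and the pale band is the range with each library left out in turn. Genes called higher in Dlx5CE-E12.5 cells are blue, those called higher in Fgfr3CE-E12.5 cells red and others grey, dashed lines mark the fold threshold, and *Chad* is from the fit with the lower filter; the band of *Prelp* stays below -2.82, while those of *Fmod* and *Ogn* reach past the threshold to 0.88 and -0.90.

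Levels of different genes were compared as RPKM, the normalized CPM divided by the length of the merged exons in kilobases. In Dlx5CE-E12.5 cells the order was *Prelp* (295.3 RPKM), *Ogn* (203.0), *Bgn* (175.2), *Lum* (164.6), *Dcn* (72.6), *Aspn* (25.01), *Omd* (10.9), *Fmod* (6.39) and *Chad* (0.301). *Ogn* and *Bgn*, and *Bgn* and *Lum*, overlapped between libraries, and the other neighbours in this order did not. In Fgfr3CE-E12.5 cells the order was *Lum* (139.7 RPKM), *Bgn* (89.3), *Ogn* (84.3), *Dcn* (55.6), *Prelp* (30.0), *Fmod* (21.5), *Omd* (20.2), *Chad* (14.2) and *Aspn* (7.70). There, *Bgn* and *Ogn* overlapped, as did each pair of neighbours from *Prelp* down to *Aspn*. With the longest transcript as the length, *Bgn* rose to 400.7 and 204.3 RPKM and came first in both groups. The summed level of the 9 genes was 965.7, 983.9 and 910.5 RPKM in the Dlx5CE-E12.5 libraries against 553.1 and 372.0 RPKM in the Fgfr3CE-E12.5 libraries. *Prelp* made up 34.0%, 27.9% and 31.1% of that sum in Dlx5CE-E12.5 cells but 7.56% and 4.89% in Fgfr3CE-E12.5 cells. All shares given here rest on merged exon lengths. With the longest transcript as the length, where *Bgn* is larger, the share of *Prelp* is smaller in every library. The share of *Lum* was 11.4%, 20.3% and 20.3% against 26.6% and 35.6%. *Fmod*, *Omd* and *Chad* each took a larger share in both Fgfr3CE-E12.5 libraries than in any Dlx5CE-E12.5 library, up to 5.66% for *Fmod*.

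**Figure D3:**
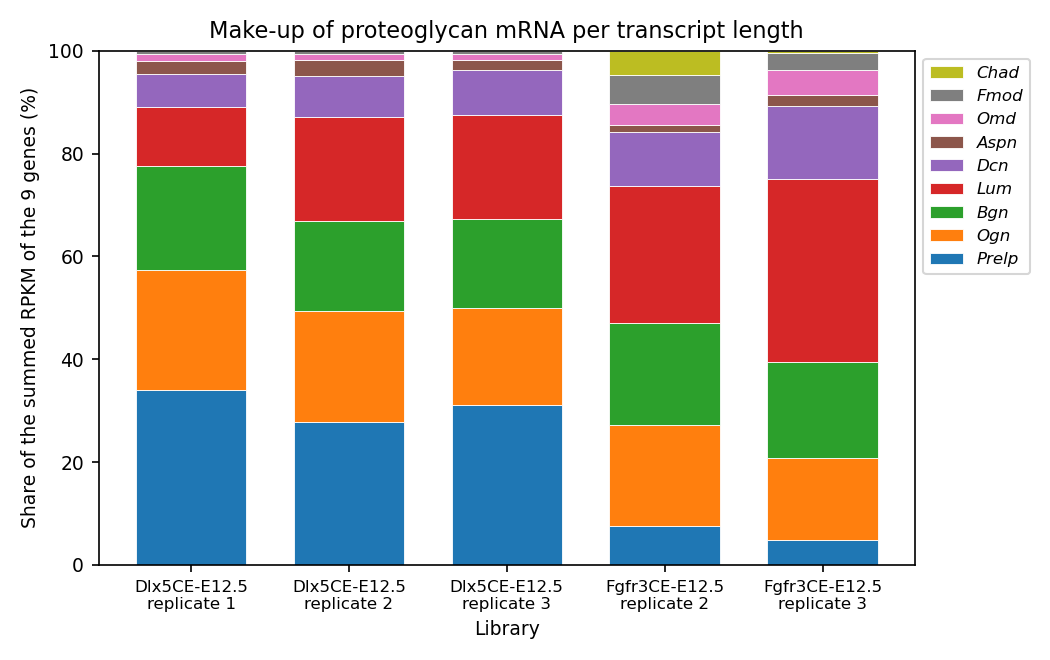
Share of each gene in the summed RPKM, on merged exon lengths, of the 9 small leucine-rich proteoglycan genes (y, percent) in each of the 5 libraries (x). The *Prelp* segment at the base covers 27.9% to 34.0% of the Dlx5CE-E12.5 bars and 4.89% to 7.56% of the Fgfr3CE-E12.5 bars.

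The Fgfr3CE-E12.5 libraries differed from each other more than the Dlx5CE-E12.5 libraries did for several of these genes. Of the 9, 8 were higher in replicate 2 than in replicate 3, with ratios of 13.7 for *Chad*, 2.66 for *Fmod*, 2.30 for *Prelp*, 1.84 for *Ogn* and 1.58 for *Bgn*. Over the 10093 genes tested the median ratio was 1.01, and the 5th to 95th percentiles spanned 0.593 to 1.72. Of the 10 CAR cell markers 9 were higher in replicate 2, by a median of 1.87 times, and of the 15 leukocyte markers none was, with a median ratio of 0.472. Between the Fgfr3CE-E12.5 libraries, *Prelp* thus moved with the CAR cell markers as well as with the chondrocyte markers. Between the groups, it moved with the summed CAR cell markers and against the summed chondrocyte markers without *Sox9*. The parts of these markers in its level were not tested. Between groups, *Prelp* differed by more than this spread, as the level in replicate 2 was exceeded 6.56 times by the lowest Dlx5CE-E12.5 library.

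**Figure D4:**
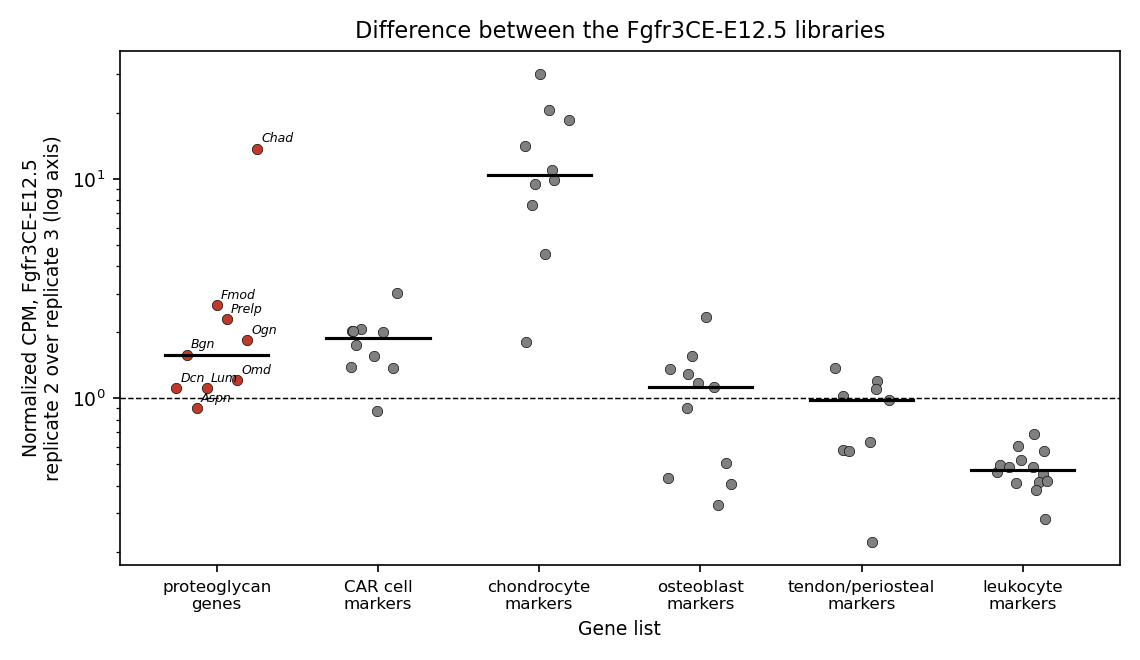
Ratio of normalized CPM in Fgfr3CE-E12.5 replicate 2 over replicate 3 (y, log axis) for the proteoglycan genes (red, named) and for marker genes of cell types (grey) past the lower filter; the black bar is the median of each list and the dashed line marks equal levels. *Chad* at 13.7 lies among the chondrocyte markers (median 10.4), the CAR cell markers have a median of 1.87 and the leukocyte markers lie below 1.

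Other cell types of bone were checked by their markers. Of all genes tested, 16.4% were called higher in Fgfr3CE-E12.5 cells and 13.1% higher in Dlx5CE-E12.5 cells. Of 10 osteoblast and osteocyte markers tested, 4 were called higher in Fgfr3CE-E12.5 cells, among them *Smpd3* (4.63), *Dmp1* (2.17) and *Alpl* (1.61), and 1 higher in Dlx5CE-E12.5 cells, *Phex* (-2.23), with sums over all 12 of 2535 to 3282 CPM against 4970 and 4769 CPM. *Alpl* alone was at 682.4, 945.6 and 758.8 CPM against 2637 and 2236 CPM, and without it the sums of the groups overlap. The sum with *Alpl* was higher in the group where *Omd*, *Fmod* and *Chad* were higher, and the part of these markers was not tested. Of 5 tendon and periosteal fibroblast markers tested none was called higher in Fgfr3CE-E12.5 cells, and *Col14a1* (-4.98) and *Mkx* (-1.35) were called higher in Dlx5CE-E12.5 cells, with summed levels of 789.5 to 846.8 CPM against 751.6 and 900.8 CPM. Under the lower filter 9 of these markers were tested, and 1 was called higher in Fgfr3CE-E12.5 cells and 3 higher in Dlx5CE-E12.5 cells. Of 14 leukocyte markers tested, 13 were called higher in Fgfr3CE-E12.5 cells. Endothelial markers were low in every library (29.3 to 57.6 CPM summed, with 0 of the 1 marker tested called, and 1 of 1 higher in Fgfr3CE-E12.5 cells with scaling by library size alone). Erythroid genes, mostly hemoglobins, summed to 17801 to 36298 CPM against 13869 and 20632 CPM, with 2 of 8 called higher in Dlx5CE-E12.5 cells, *Hbb-bt* (-1.27) and *Hba-a1* (-1.18), and 1 of 8 with scaling by library size alone.

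The rest of the family was low apart from *Podnl1*, which was at 381.5 to 415.5 CPM in Dlx5CE-E12.5 cells and 326.8 and 340.7 CPM in Fgfr3CE-E12.5 cells (log2 fold change -0.25, SE 0.13, edgeR adjusted p = 0.164). *Ecm2*, the neighbour of *Aspn* on the same strand, was at 36.3, 43.2 and 40.4 CPM against 11.6 and 6.31 CPM and was called higher in Dlx5CE-E12.5 cells (-2.16, SE 0.29, edgeR adjusted p = 0.00117). *Podn*, podocan, was called in the same direction (-1.67, SE 0.47, adjusted p = 0.0235), at 26.4, 10.5 and 10.4 CPM against 4.96 and 4.99 CPM, with replicate 1 well above the other Dlx5CE-E12.5 libraries. Of the genes under the filter, *Chadl*, which is related to *Chad*, was called higher in Fgfr3CE-E12.5 cells (1.77, SE 0.48, adjusted p = 0.0220 under the lower filter), and *Tsku* was at 1.20 (SE 0.42, adjusted p = 0.0531). *Chadl* shares exon bases with a gene on the opposite strand. *Epyc* (epiphycan), a cartilage member that neighbours this family's cluster on chromosome 10, had 0, 1 and 2 counts in the Dlx5CE-E12.5 libraries and 970 and 23 in the Fgfr3CE-E12.5 libraries, with replicate 2 again above replicate 3, and 39.5% of its 50-base windows also occur in transcripts of another gene. *Nyx* had 0, 3 and 0 counts against 25 and 41. *Kera* and *Nepn* were listed too but had no protein-coding row with any count.

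Genes that make the sugar chains were called in both directions. Of 24 tested genes of linker and chondroitin or dermatan sulfate synthesis, 6 were called higher in Fgfr3CE-E12.5 cells (25%) and 2 higher in Dlx5CE-E12.5 cells (8.33%), beside 16.4% and 13.1% of all genes tested, with a median of 0.37. *B3gat3*, which completes the linker to the core protein, rose by 1.72 (SE 0.23, edgeR adjusted p = 0.00115), the chain-polymerizing *Chsy3* by 1.58 (SE 0.22, adjusted p = 0.00132) and *Chst14*, a dermatan sulfotransferase, by 1.20 (SE 0.30, adjusted p = 0.0147). *Dsel*, an epimerase that makes dermatan from chondroitin (-1.17), and *Chst15*, a chondroitin sulfotransferase (-1.09), were higher in Dlx5CE-E12.5 cells; neither was called with scaling by library size alone, under which 8 and 0 genes of this list were called. Of 6 keratan sulfate genes tested, the sulfotransferases *Chst2* (1.73, SE 0.21, adjusted p = 0.000845) and *Chst5* (1.15, SE 0.33, adjusted p = 0.0244) were called higher in Fgfr3CE-E12.5 cells. The chain-extending enzymes *B3gnt2* (-2.32, SE 0.25, adjusted p = 0.000508) and *B4galt1* (-1.16, SE 0.14, adjusted p = 0.000812) were called higher in Dlx5CE-E12.5 cells. These are 33.3% of the list in each direction, and the list median was 0.07.

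Of 21 tested genes of fibrillar collagens and fibril partners, the targets of these proteoglycans, 4 were called higher in Fgfr3CE-E12.5 cells (19.0%) and 7 higher in Dlx5CE-E12.5 cells (33.3%), beside 16.4% and 13.1% of all genes tested, with a median of -0.11. With scaling by library size alone the counts were 6 and 6. *Col2a1*, the collagen of cartilage, was at 7.01, 3.16 and 0.76 CPM against 2597 and 342.7 CPM (log2 fold change 8.63, SE 1.17, edgeR adjusted p = 0.00121), with the gap between the Fgfr3CE-E12.5 libraries seen for *Chad*. *Col11a2*, a minor cartilage collagen, was called in that direction at 4.24 (SE 0.45), and *Col5a3*, a minor fibril collagen, at 1.99 (SE 0.18). *Col14a1*, a collagen on the fibril surface, was at 17.1 ± 0.29 CPM (SD, n = 3) against 0.54 ± 0.07 CPM (SD, n = 2), a log2 fold change of -4.98 (SE 0.28, adjusted p = 4.37e-05). The lysyl oxidase relatives *Loxl1* (-2.85, SE 0.19) and *Loxl2* (-2.67, SE 0.22), which cross-link elastin and collagen, were called higher in Dlx5CE-E12.5 cells. *Loxl1* was at 1952 to 2030 CPM in those libraries and 242.5 and 307.2 CPM in the Fgfr3CE-E12.5 libraries. Both were thus higher in the group where *Fmod* was lower.

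**Figure D5:**
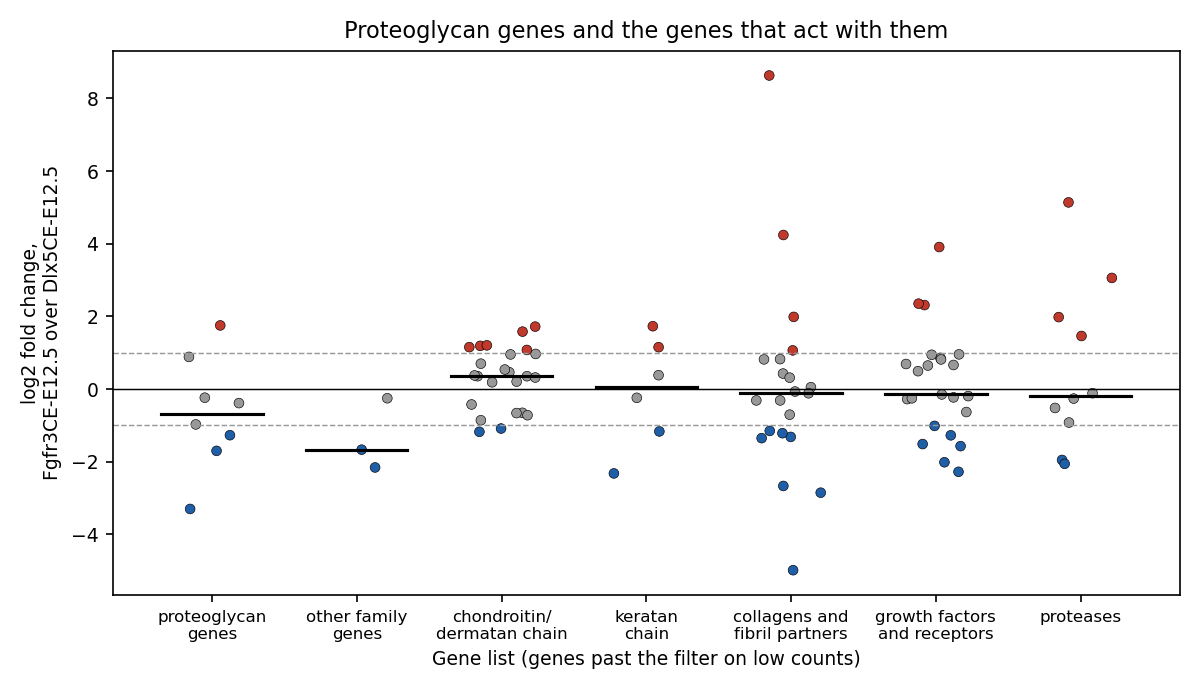
Log2 fold change (y, Fgfr3CE-E12.5 over Dlx5CE-E12.5) of genes past the filter in 7 lists (x); blue genes were called higher in Dlx5CE-E12.5 cells, red genes higher in Fgfr3CE-E12.5 cells and grey genes were not called, black bars are list medians and dashed lines mark the fold threshold. The proteoglycan genes have a median of -0.68 and the chondroitin and dermatan chain genes one of 0.37, and each list other than the other family genes holds calls in both directions.

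The genes whose pattern over the 5 libraries was most like each of the 8 tested members were found by the root mean square difference of centred log2 CPM, which describes these libraries and nothing more. For *Prelp* they were *Fam177a* (0.0877), *Ston1* (0.117) and *Zfp383* (0.146). *Fmod* was followed most closely by *Bcat1* (0.150), *Syt9* (0.151) and *Atp9a* (0.182), and *Aspn* by *Zcchc7* (0.148), *Robo2* (0.172) and *Cdkn1b* (0.174). For *Ogn* they were *Tmtc3* (0.0526), *Cc2d2a* (0.0696) and *Ptprg* (0.0734), and for *Omd* *Pdzd8* (0.0377), *Phc1* (0.0429) and *Castor1* (0.0557). *Bgn* lay nearest to *Senp7* (0.0406), *4932438A13Rik* (0.0571) and *Epm2aip1* (0.0572), *Dcn* to *Tnfrsf1a* (0.0201), *Slc7a6os* (0.0291) and *Hbp1* (0.0329), and *Lum* to *Pafah2* (0.0446), *Dock10* (0.0524) and *Slc26a11* (0.0547). None of the 8 had another of the 8 among its 3 nearest genes. Only the 10093 genes tested were searched, so *Chad* could not appear. With 3 places among so many genes, this absence says little about whether the members moved alike.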

How the data were processed

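By the submitters' processing notes, reads were mapped to mm10 by TopHat2 2.0.13 and Bowtie2 2.2.1. The authors deposited raw counts per gene, made on the Ensembl annotation with reporter sequences added; the strand setting is not given in the sources used here. The deposited depth-normalized and rlog tables were not used. Libraries were grouped by the labels. The paper calls the libraries biologically independent samples from pooled mice but does not state how the mice were split between them. The p-values measure only the spread between these libraries. No pair of libraries was a duplicate. The fit used edgeR 4.0.16 (R 4.3.3; TMM, quasi-likelihood test, 1 coefficient for lineage) on protein-coding genes and reporters with a CPM of 10 or more in 2 libraries, and checked on simulated data. SEs were derived from the F statistics. A floor of 3 counts equals 0.0516 to 0.136 CPM, covering counting error only. Gene types, lengths and positions came from GENCODE M21, matching 29996 features by identifier. The 9 members, the gene lists and the motifs were chosen with earlier results of these data known. Named are all members, their chromosome neighbours and 3 nearest genes in pattern, the other family genes, and up to 3 called genes per direction in each list. RefSeq promoters were found for 7 of the 9 members, not for *Dcn* and *Lum*. Alternatives were other normalizations, filters, tests (DESeq2 1.42.0, edgeR's exact test, glmTreat), features and thresholds, GC or length trends removed, the replicate block, gene length, and each library left out.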

Additional observations from a re-analysis of the deposited data

How the results depend on the processing

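*Fmod* was the 1 member called higher in Fgfr3CE-E12.5 cells. That count was 2 with library size only (*Omd* added), 2 with a CPM of 1 or more in 2 libraries and 2 with no filter on low counts (*Chad* added), 2 with no fold change threshold, and 0 with glmTreat, which tests a change above 2-fold. With each library left out in turn it ranged from 0 (without Fgfr3CE-E12.5 replicate 2) to 2 (without replicate 3). The count called higher in Dlx5CE-E12.5 cells was 3, and ranged from 2 to 4 over all alternatives; *Ogn* was lost with glmTreat (adjusted p = 0.277) and without Fgfr3CE-E12.5 replicate 3, *Fmod* with glmTreat (adjusted p = 0.0743). Of 143 refitted member values, 133 kept their direction and their call, 5 crossed to called, 5 were lost and 0 changed sign. Of the 133, 3 crossed the threshold on the adjusted p alone (*Dcn* to 0.0471 without Dlx5CE-E12.5 replicate 1, *Bgn* to 0.936 and *Omd* with glmTreat). *Prelp* and *Aspn* were called under every alternative. Library size alone moved the median of all genes from 0.01 to 0.22, and the share of calls higher in Fgfr3CE-E12.5 cells from 55.6% to 66.3%. Under it, calls among growth factors and receptors higher in Fgfr3CE-E12.5 cells went from 3 to 6, and calls higher in Dlx5CE-E12.5 cells from 2 to 1 among keratan chain genes and among erythroid markers. The cause of these shifts was not tested. Labels share replicate numbers 2 and 3 but refer to different pools; deviations of same-numbered libraries correlated at 0.124 and -0.0486, and with the replicate number as a block 1681 and 1386 genes were called, against 1655 and 1320 without, with 3 and 1 members called as before. The Fgfr3CE-E12.5 group has 2 libraries, and *Chad*, with 3 to 19 counts in Dlx5CE-E12.5 libraries, had an SE of 1.10 against 0.17 to 0.38 for the other members.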

Other observations

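Growth factors and receptors that these proteoglycans are known to bind were called in both directions. Of 23 tested, 3 were called higher in Fgfr3CE-E12.5 cells (13%) and 6 higher in Dlx5CE-E12.5 cells (26.1%), beside 16.4% and 13.1% of all genes; with scaling by library size alone the counts were 6 and 5. *Tgfb1*, the ligand bound by decorin, biglycan and asporin, was at 5.48, 3.86 and 4.42 CPM in Dlx5CE-E12.5 cells and at 52.7 and 85.9 CPM in Fgfr3CE-E12.5 cells (log2 fold change 3.91, SE 0.27, edgeR adjusted p = 8.43e-05). Leukocyte markers were higher in the same libraries and highest where *Tgfb1* was highest, and their part was not tested. *Ccn2* (2.31, SE 0.32) and *Ccn4* (2.35, SE 0.16), matricellular proteins that bind decorin, were called in the same direction. *Bmp4* was called higher in Dlx5CE-E12.5 cells (-2.28, SE 0.22, adjusted p = 0.000335), at 274.5 to 402.8 CPM against 73.6 and 60.2 CPM, as were *Igf1r* (-2.01, SE 0.18), a receptor that decorin binds, and *Tgfbr3* (-1.57, SE 0.30).

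Proteases that cut these proteins were listed together with *Pcolce* and *Pcolce2*, which encode enhancers of a protease. Of 10 genes of this list tested, 4 were called higher in Fgfr3CE-E12.5 cells (40%) and 2 higher in Dlx5CE-E12.5 cells (20%), beside 16.4% and 13.1% of all genes. *Mmp9* was at 67.5 to 74.4 CPM against 2487 and 2458 CPM (5.14, SE 0.16, edgeR adjusted p = 3.40e-05), *Mmp14* at 110.7 to 199.9 CPM against 1219 and 1274 CPM (3.06, SE 0.26) and *Mmp13* at 1814 to 2983 CPM against 9718 and 9667 CPM (1.98, SE 0.24). Of 14 leukocyte markers tested, 13 were called in the direction of *Mmp9*. Between the Fgfr3CE-E12.5 libraries, these markers had a median ratio of 0.472 (replicate 2 over replicate 3), while *Mmp9* was nearly equal. Their part in the level of *Mmp9* was not tested. The levels of these 3 proteases were within 5% of each other between the Fgfr3CE-E12.5 libraries, where *Prelp*, *Fmod* and *Chad* differed by 2.30 times or more. The aggrecanases *Adamts5* (-2.06, SE 0.25) and *Adamts1* (-1.95, SE 0.27) were called higher in Dlx5CE-E12.5 cells.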
